A study of Mus musculus with 60 samples.

Results

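The cyclin-dependent kinase inhibitor genes Cdkn1a, Cdkn1b, Cdkn1c, Cdkn2a, Cdkn2b, Cdkn2c, Cdkn2d and Cdkn3 were followed across 60 RNA sequencing libraries of mouse fibroblasts. They were picked by gene symbol, as the members of 1 family, and are 8 of the 56980 gene identifiers in each of the 2 deposited count tables. The first table holds 36 libraries, 3 in each of 12 groups, from tail tip fibroblasts in which the Yamanaka factors Oct4, Sox2, Klf4 and Myc can be switched on. Cells called D/KO here are labelled 4FJ_ERCC1_(d/-) and come from male mice of 8 weeks. They carry 1 truncated and 1 deleted allele of Ercc1, a subunit of the nuclease that cuts damaged DNA out of the strand. Cells called WT are labelled 4FJ_(+/-)_OCT4-GFP and come from female mice of 22 weeks, so D/KO and WT differ in line, sex and age as well as in Ercc1, and these cannot be told apart. The study's methods list this line beside a second 4-factor line, Ercc1+/+ from male mice of 8 weeks, which the labels of these libraries do not name. All of these cells hold a 4-factor transgene at Col1a1, and D/KO cells the transactivator M2-rtTA, driven from the ROSA26 locus, so induction is not limited to 1 cell type there. Doxycycline at 2 µg/ml was given for 0, 2 or 4 days, either alone or together with VC, a mixture of 50 µg/ml ascorbic acid and 3 µM of the GSK3 inhibitor CHIR99021. Day 0 with VC (plus VC in the figures) is VC without doxycycline, and how long VC was given there is not stated.

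The second table holds 24 libraries in 8 groups of 3. D/KO cells labelled ERCC1_(d/-), from female mice of 4 weeks, were left as a control or were given an inhibitor of the TGFβ receptor family for 3 days. Repsox and Vactosertib, used at 0.1 µM, and A83-01, used at 1 µM, act on ALK5, the type I TGFβ receptor. DMH-1, used at 1 µM, acts on ALK2, a BMP type I receptor, which the study names as a target of Vactosertib too. Untreated WT cells labelled ERCC1_(+/+), from female mice of 14 weeks, came from tail tip in 3 libraries and from skin in the other 3. The last group, 3 libraries of the WT line with the 4-factor transgene, is labelled TGFB, with no dose or time, and has no untreated partner in its table. Nothing in the labels says whether the 3 libraries of a group were separate cultures or animals, so the p-values below measure only the spread between these libraries, which may be technical.

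Cyclin-dependent kinases drive cells from 1 phase of division to the next when bound to cyclins, and the products of these genes hold them back. The INK4 proteins p16 and p15, with p18 and p19, bind CDK4 and CDK6 and keep D-type cyclins from activating them, while the Cip/Kip proteins p21, p27 and p57 bind cyclin-CDK complexes more broadly. Cdkn2a also encodes p19Arf from a different first exon and reading frame, a protein that stabilises p53 by holding Mdm2, and Cdkn3 encodes a phosphatase that removes the activating phosphate from CDK2 and CDK1. In fibroblasts p21, p16 and p15 are known for rising in senescence, and the Cdkn2a and Cdkn2b locus is known as a barrier to reprogramming by the Yamanaka factors.

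Promoter sequence was printed for the genes whose levels the results below turn on: Cdkn1a, a classical p53 target, with both of its listed starts, Cdkn2a and Cdkn2b, neighbours on chromosome 4 whose levels went together, and Cdkn3, whose closest genes by level included 2 of mitosis. RefSeq held entries in build GRCm38.p6 for 7 of the 8 genes, with 10 starts in all. Each run is the 150 bases before the start, 5′ to 3′ on the gene's strand. Capitals mark matches on either strand to a few known motifs. The GC box, which Sp1 binds, was searched as GGGCGG. The box that NF-Y binds was searched as CCAAT and the core promoter box as TATAAA. The Smad element, a short site of the TGFβ effectors, was searched as CAGAC, and the p53 half-site by its consensus of 10 letters. No matches overlap in these windows.
Cdkn1a, first start, chr17:29090829-29090978 (plus strand, GRCm38.p6): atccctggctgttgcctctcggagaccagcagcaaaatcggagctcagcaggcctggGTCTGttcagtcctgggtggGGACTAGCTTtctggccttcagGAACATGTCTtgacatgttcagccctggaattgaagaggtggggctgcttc
Cdkn1a, second start, chr17:29093619-29093768 (plus strand, GRCm38.p6): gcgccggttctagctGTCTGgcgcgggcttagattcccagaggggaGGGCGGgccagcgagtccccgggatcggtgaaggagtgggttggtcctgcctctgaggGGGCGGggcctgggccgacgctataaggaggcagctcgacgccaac
Cdkn2a, start of the p19Arf transcript, chr4:89294620-89294769 (minus strand, GRCm38.p6): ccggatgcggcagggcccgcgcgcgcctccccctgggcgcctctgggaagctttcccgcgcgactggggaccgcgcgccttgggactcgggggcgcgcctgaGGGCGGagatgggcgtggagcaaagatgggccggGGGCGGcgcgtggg
Cdkn2a, start of the p16 transcript, chr4:89282193-89282342 (minus strand, GRCm38.p6): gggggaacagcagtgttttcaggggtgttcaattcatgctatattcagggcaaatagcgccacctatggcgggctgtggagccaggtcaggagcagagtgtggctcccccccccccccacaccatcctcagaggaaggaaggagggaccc
Cdkn2b, chr4:89311033-89311182 (minus strand, GRCm38.p6): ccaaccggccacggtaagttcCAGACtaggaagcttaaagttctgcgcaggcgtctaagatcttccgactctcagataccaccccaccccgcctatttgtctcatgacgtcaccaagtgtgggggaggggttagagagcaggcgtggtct
Cdkn3, chr14:46760391-46760540 (plus strand, GRCm38.p6): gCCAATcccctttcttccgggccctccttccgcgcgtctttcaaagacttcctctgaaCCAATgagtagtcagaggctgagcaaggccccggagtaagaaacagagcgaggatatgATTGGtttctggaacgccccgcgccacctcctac

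The first Cdkn1a window held 2 p53 half-sites, which begin 73 and 51 bases before the start, and 1 CAGAC. The second held 2 GC boxes and 1 CAGAC. A p53 half-site was found in 4.0% of the 32851 promoters of this length in the table, and CAGAC in 27.7%. Upstream of the p19Arf start there were 2 GC boxes, present in 28.6% of promoters, in a window of 78.7% G and C, while the p16 window, of 60% G and C, held none of the motifs searched. The median window of all promoters was 54% G and C. Cdkn2b had 1 CAGAC, 129 bases before its start, and Cdkn3 had 3 CCAAT boxes, a motif present in 24.5% of promoters. No TATAAA was found in any of the 6 windows, against 7.6% of all promoters. These are matches of letters and do not show binding.

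In the authors' gene models on GRCm39, Cdkn2a (ENSMUSG00000044303) spans chr4:89192708-89212890 and Cdkn2b (ENSMUSG00000073802) spans chr4:89224536-89229276, both on the minus strand. Cdkn2c (ENSMUSG00000028551) lies far from them on the same chromosome, at chr4:109518073-109524386. Cdkn1a (ENSMUSG00000023067) is at chr17:29309950-29319701, Cdkn1b (ENSMUSG00000003031) at chr6:134897364-134902476, Cdkn1c (ENSMUSG00000037664) at chr7:143012076-143014787, Cdkn2d (ENSMUSG00000096472) at chr9:21199706-21202703 and Cdkn3 (ENSMUSG00000037628) at chr14:46997998-47009126. A count over all exons of Cdkn2a does not separate p16 from p19Arf. The sources do not say whether counting used strand, so reads of a gene and of an overlapping antisense gene cannot be told apart. For Cdkn1a the antisense gene Dino shares 273 bases (7.7% of the exons) and drew 1659 and 900 counts in the 2 tables, against 383459 and 352123 for Cdkn1a itself. Gm57073 shares 12.7% of the exons of Cdkn2c and drew 15 and 3 counts, and Gm44732 shares 30.7% of the exons of Cdkn1c and drew 0.

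Totals per library lay between 16538374 and 18484951 counts for reprogramming and between 17102639 and 30599138 for the inhibitors. Ercc1 itself was at 8.04 to 18.6 CPM (counts scaled to a common library size) in the D/KO and 16.9 to 29.1 in the WT reprogramming libraries, and these ranges overlap, as do those of the inhibitor table (13.2 to 23.5 and 13.3 to 47.8). Fibroblast markers summed to at least 33140 CPM in every reprogramming library and 40700 in every inhibitor library. Replicate 1 of WT skin correlated less with its own group (mean r = 0.951) than replicates 2 and 3 did (0.969 and 0.970), and replicate 2 of Repsox (0.971) less than its partners (0.981 and 0.980). Called values of the 8 genes that rest on either are given with and without it. Values of other genes and of lists are given only with all libraries kept. RNA came from whole cultures, so a lower level can mean fewer cells of a type or less RNA per cell, and these cannot be told apart. Levels below are CPM on library sizes scaled by the trimmed mean of M values (TMM). Differences are log2 fold changes from edgeR's quasi-likelihood test with their standard errors, called at a Benjamini-Hochberg adjusted p under 0.05 over all genes tested, 15832 for reprogramming and 15164 for the inhibitors.

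Per kilobase of exon, the genes of the INK4 locus and Cdkn1a stood far above the rest. Median levels over the 36 reprogramming libraries were 219 RPKM (CPM per kilobase of exon) for Cdkn2a, 171 for Cdkn1a and 71.3 for Cdkn2b. Cdkn1b was at 9.31 RPKM, Cdkn2d at 7.86 and Cdkn2c at 5.36, while Cdkn1c and Cdkn3 were at 0.982 and 0.640. The inhibitor table gave the same order, from 262 RPKM for Cdkn2a to 0.459 for Cdkn3. Cdkn1c and Cdkn3 rest on 6 to 101 and 5 to 84 counts per reprogramming library, so their errors are the widest of the 8. Between the highest and the lowest of the 12 group means the levels differed by 1.84-fold for Cdkn2d, 2.09 to 2.87-fold for the 5 genes Cdkn1a, Cdkn2a, Cdkn2c, Cdkn2b and Cdkn1b, 6.84-fold for Cdkn1c and 8.21-fold for Cdkn3. In that order of group means, 8 of 11 neighbouring pairs overlapped for Cdkn1b, 9 for Cdkn1a, Cdkn2b, Cdkn2c and Cdkn3, 10 for Cdkn1c and Cdkn2a and all 11 for Cdkn2d. All 8 genes passed the filter on low counts in every fit.

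**Figure D1:**
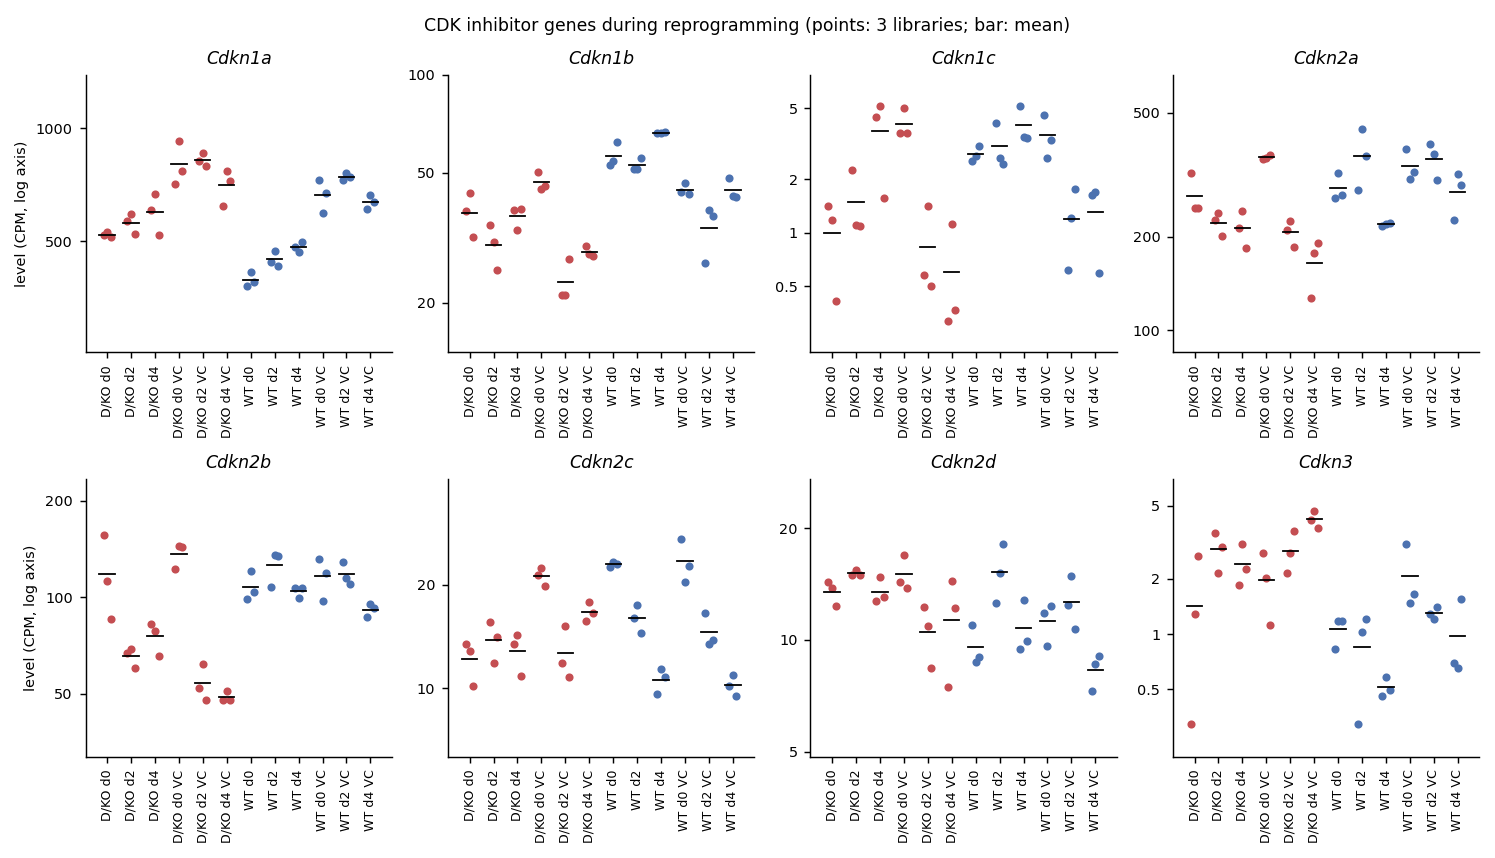
Level of each gene in the 12 groups of the reprogramming table, in CPM on log axes, 1 point per library (3 per group) with the group mean as a bar. Cdkn1a is higher in the groups with VC, Cdkn2b is lowest in the 4 D/KO groups given doxycycline, and Cdkn2c falls with doxycycline in WT cells.

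Among the Cip/Kip genes, Cdkn1a, the gene of p21, was higher with VC in both lines. In WT cells at day 0 it was at 380, 414 and 389 CPM, and with VC at 726, 593 and 670.3 CPM. In D/KO cells it was at 518, 529 and 514 CPM without VC and at 712, 925 and 769.8 with it. In both lines every VC library lay above every library without it. The difference was 0.75 ± 0.10 (SE, adjusted p = 2.49e-07) on the log2 scale in WT and 0.62 ± 0.10 (6.21e-06) in D/KO cells. With VC alone the summed fibroblast markers also went from 52100 to 53870 CPM up to 155700 to 171400 in WT, and from 80120 to 119100 up to 183700 to 253200 in D/KO cells. Endothelial markers in D/KO cells were at 586 to 709.7 CPM without VC and 215 to 256 with it. Their part in the results with VC alone, here and below, was not tested. At day 2 VC raised Cdkn1a by 0.73 ± 0.10 in WT (7.12e-07) and 0.56 ± 0.10 in D/KO cells (4.42e-05), and at day 4 in WT cells, by 0.40 ± 0.10 (0.00244). The D/KO difference at day 4, 0.24 ± 0.10, missed the threshold (adjusted p = 0.0581, 95% interval 0.04 to 0.44). It was called by DESeq2 (0.0277), by edgeR with DESeq2 size factors (0.0478) and with a minimum of 10 counts in every library (0.0389).

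Doxycycline alone moved Cdkn1a little. D/KO levels were 566, 592 and 522 CPM at day 2 and 606, 667 and 519.7 at day 4, ranges that overlap each other and day 0, with changes of 0.11 ± 0.10 (adjusted p = 0.47) and 0.20 ± 0.10 (0.115). In WT cells the 482, 467 and 499 CPM at day 4 were all above day 0, and the rise of 0.29 ± 0.10 was called (0.0279). That call was lost without WT day 0 replicate 1 (0.0978) or 3 (0.0821), or WT day 4 replicate 1 (0.0649) or 3 (0.094). With VC throughout, the changes from day 0 lay between -0.19 and 0.16 in both lines, and none was called. Measured instead from day 0 without VC, Cdkn1a was higher at day 2 with VC by 0.66 for D/KO (8.36e-07) and 0.91 for WT cells (2.83e-09), and at day 4 with VC by 0.44 (0.000318) and 0.69 (5.38e-07). Of the 12 groups ordered by level, from 394 CPM in WT day 0 to 823 in D/KO day 2 with VC, 9 of the 11 neighbouring pairs overlapped. D/KO day 0 stood above WT day 4, and WT day 2 above WT day 0.

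Cdkn1b, whose product p27 restrains CDK2 in resting cells, was lower with doxycycline and VC together. D/KO cells at day 0 with VC held 50.4, 44.6 and 45.5 CPM, which became 21.1, 21.1 and 27.2 at day 2 with VC and 29.8, 28.2 and 27.8 at day 4 with VC. All 6 libraries with the factors on were below all 3 without. The summed fibroblast markers were at 183700 to 253200 CPM in D/KO cells at day 0 with VC and at 33140 to 34340 at day 4 with VC. Keratinocyte markers went from 7.02 to 9.84 CPM up to 350 to 482 over the same days, with Krt5, Krt15, Dsg3 and Ivl, 4 of the 10, under 1 CPM in every library. Their part in the D/KO results with VC, here and below, was not tested. The fall was 1.02 on the log2 scale at day 2 (a change of -1.02 ± 0.13, adjusted p = 3.22e-08) and -0.71 ± 0.13 at day 4 (1.19e-05). WT cells went from 43.5, 46.5 and 43.2 CPM to 26.5, 38.6 and 36.9 at day 2 with VC (-0.39 ± 0.13, 0.0194) and were at 48.4, 42.6 and 42.2 at day 4 with VC (0.00 ± 0.13, 0.998). From day 0 without VC the WT change at day 4 with VC was -0.35, which was called (0.0248). The WT call at day 2 was lost without WT day 0 with VC replicate 2 (0.0724) or WT day 2 with VC replicate 1 (0.207).

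Without VC, Cdkn1b changed by -0.33 ± 0.13 at day 2 in D/KO cells, where 38.3, 43.4 and 31.7 CPM at day 0 overlapped 34.5, 30.6 and 25.1 at day 2. Its adjusted p of 0.04995 was at the threshold, and it was lost without D/KO day 0 replicate 1 (0.106) or 2 (0.275), or D/KO day 2 replicate 2 (0.0917) or 3 (0.287). At day 4 the D/KO change was -0.04 ± 0.13 and the WT change 0.24 ± 0.12 (adjusted p = 0.849 and 0.166). Given to cells with the factors on, VC lowered Cdkn1b in both lines. WT cells held 51.2, 51.5 and 55.7 CPM at day 2 and 66.1, 66.4 and 66.8 at day 4, the highest of the 12 groups, and the changes with VC were -0.64 ± 0.13 (0.000209) and -0.58 ± 0.12 (0.000509). The corresponding D/KO changes were -0.38 ± 0.13 (0.0273) and -0.36 ± 0.13 (0.0233).

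The D/KO call at day 2 was lost without D/KO day 2 replicate 1 (0.195) or 2 (0.0761), or D/KO day 2 with VC replicate 1 (0.129) or 2 (0.129). At day 4 it was lost without D/KO day 4 replicate 1 (0.0763) or 3 (0.0689), or D/KO day 4 with VC replicate 2 (0.0602) or 3 (0.0677). At day 0, VC changed Cdkn1b by -0.34 ± 0.12 in WT (0.034) and by 0.31 ± 0.13 in D/KO cells (0.0677). The WT value was no longer called without WT day 0 replicate 2 (0.0506) or 3 (0.154), or WT day 0 with VC replicate 1 (0.0877) or 3 (0.0991).

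Cdkn1c, the imprinted gene of p57, was low in every reprogramming library, at 0.317 to 5.17 CPM. D/KO cells at day 0 held 1.42, 1.17 and 0.413 CPM, and with VC 3.63, 5.05 and 3.65, a rise of 2.03 ± 0.47 (adjusted p = 0.00119) with no overlap. With VC and doxycycline the level dropped to 0.579, 1.42 and 0.504 CPM at day 2 (-2.29 ± 0.48, 0.000158) and to 0.317, 1.11 and 0.369 at day 4 (-2.77 ± 0.50, 1.40e-05), again without overlap. Doxycycline alone gave the opposite direction at day 4, with 4.45, 5.17 and 1.57 CPM (1.90 ± 0.47, 0.00132), and VC against no VC at day 4 was -2.64 ± 0.50 (6.25e-05). Those 5 D/KO calls held with any 1 library left out, though their sizes moved. Without D/KO day 2 with VC replicate 2 the day 2 change was -2.90, and without D/KO day 4 with VC replicate 2 the day 4 change was -3.54 and that of VC at day 4 was -3.42. Against day 0 without VC, neither day 2 nor day 4 with VC was called (-0.26, adjusted p = 0.723, and -0.74, 0.28).

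WT cells fell in Cdkn1c from 4.61, 2.64 and 3.32 CPM at day 0 with VC to 0.613, 1.21 and 1.76 at day 2 (-1.55 ± 0.46, 0.01) and 1.63, 1.70 and 0.592 at day 4 (-1.43 ± 0.46, 0.0102). Both drops were lost without WT day 0 with VC replicate 1 (0.0602 and 0.06), the first also without WT day 2 with VC replicate 1 (0.0713) and the second without WT day 4 with VC replicate 3 (0.0791). From day 0 without VC the WT change at day 4 with VC was -1.08 and not called (0.0574). Adding VC to WT cells with the factors on lowered Cdkn1c, with changes of -1.35 ± 0.46 at day 2 (0.0272) and -1.62 ± 0.45 at day 4 (0.00688). The day 2 value was not called without WT day 2 replicate 1 (0.125), or WT day 2 with VC replicate 1 (0.14) or 2 (0.0661), nor the day 4 value without WT day 4 with VC replicate 3 (0.0662). Neither doxycycline alone nor VC alone moved it past the threshold in WT cells (0.15 ± 0.42, 0.54 ± 0.42 and 0.35 ± 0.42).

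Among the INK4 genes, Cdkn2b fell in D/KO cells at both days, with and without VC. Its D/KO level was 156, 112 and 85.9 CPM at day 0, 67.1, 69.1 and 60.4 at day 2 and 82.7, 78.5 and 65.9 at day 4. Every library with the factors on was below every day 0 library, with changes of -0.85 ± 0.14 (adjusted p = 1.17e-05) and -0.64 ± 0.14 (0.000334). Doxycycline alone also moved marker sums in D/KO cells. Between day 0 and day 4 fibroblast markers went from 80120 to 119100 CPM down to 37410 to 39040, endothelial markers from 586 to 709.7 down to 328 to 345, and keratinocyte markers from 4.89 to 5.55 up to 49.3 to 66.5. Their part in the D/KO results with doxycycline alone was not tested. With VC the day 0 level was 123, 145 and 143 CPM, against 52.1, 62.1 and 47.7 at day 2 and 47.8, 51.1 and 47.9 at day 4. These changes, -1.34 ± 0.14 (7.54e-10) and -1.48 ± 0.14 (4.84e-11), give the 2 lowest group means of the table, 54.0 and 48.9 CPM. VC against no VC was called at day 4 only (-0.63 ± 0.14, 0.000626), where the other D/KO values were 0.21 ± 0.14 at day 0 and -0.28 ± 0.14 at day 2, and whether those differ from the day 4 value was not tested. In a fit of only the groups compared, the day 2 value was called as well (-0.28, 0.0323).

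In WT cells Cdkn2b was at 98.9, 121 and 104 CPM at day 0, 108, 135 and 135 at day 2 and 107, 99.3 and 107 at day 4, ranges that overlap. The changes were 0.22 ± 0.14 (adjusted p = 0.355) and -0.05 ± 0.14 (0.845), and 0.02 ± 0.14 (0.932) at day 2 with VC. At day 4 with VC it was at 86.7, 95.5 and 92.4 CPM, below the 132, 97.6 and 119.6 CPM of day 0 with VC. That change of -0.35 ± 0.14 was called (0.0428), but from day 0 without VC it was -0.24 and not called (0.18). It was lost without WT day 0 with VC replicate 1 (0.214) or 3 (0.106), or any 1 of the 3 WT day 4 with VC replicates (0.131, 0.0646 and 0.0846).

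Cdkn2a, next to Cdkn2b, took the same path in D/KO cells given VC, with smaller changes. The levels of 355, 357 and 367 CPM at day 0 with VC became 209.9, 225 and 185 at day 2 and 128, 177 and 191 at day 4, with no overlap. The change was -0.80 ± 0.15 (adjusted p = 3.02e-05) and -1.12 ± 0.15 (6.77e-08). Without VC the D/KO cells held 319, 247 and 247 CPM at day 0, 226, 238 and 200.2 at day 2 and 214, 242 and 184 at day 4. All 6 were below day 0, but the changes of -0.29 ± 0.15 (0.149) and -0.34 ± 0.15 (0.067) missed the threshold. VC at day 0 gave 0.41 ± 0.15 (0.0382), a call lost without D/KO day 0 replicate 2 or 3 (0.147 each) or any 1 of the 3 D/KO day 0 with VC replicates (0.0759, 0.0655 and 0.0861). At day 4, VC against no VC was -0.37, with overlap, and missed the threshold (0.0505). It was called by DESeq2 (0.0408), with DESeq2 size factors (0.0474), without a filter on low counts (0.00895) and with at least 10 counts in every library (0.049).

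No Cdkn2a change in WT cells was called. The WT level was 266, 321 and 272 CPM at day 0, 282, 441 and 363 at day 2 and 216, 219 and 221 at day 4, the last below every day 0 library (-0.39 ± 0.15, adjusted p = 0.053). Fitted on those 2 groups alone, the same change was called (-0.37, 2.33e-05). With VC, WT cells were at 381, 306 and 322 CPM at day 0 and 226, 317 and 293 at day 4 (-0.27 ± 0.15, 0.134). At day 4 every library with VC was above every one without, and that change of 0.35 ± 0.15 missed the threshold (0.0922), but was called on those 2 groups alone (0.32, 0.00856) and without a filter on low counts (0.0267). Across the 36 libraries Cdkn2a and Cdkn2b levels correlated at r = 0.86 on the log2 scale, the highest value of any pair of the 8 genes. These 36 points share 12 conditions, so r describes the pattern and was not tested.

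**Figure D2:**
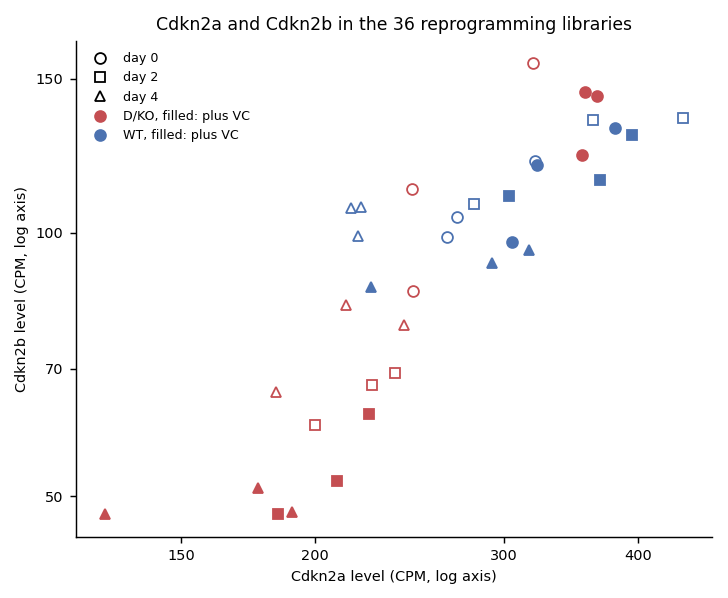
Level of Cdkn2b against that of Cdkn2a in the 36 reprogramming libraries, both in CPM on log axes, 1 point per library, with shape for day, colour for line and filled symbols for VC. D/KO libraries with doxycycline and VC lie at the lower left, with Cdkn2b between 47.7 and 62.1 CPM.

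Cdkn2c, which encodes p18, fell with the factors on in WT cells. Its WT level was 22.6, 23.4 and 23.0 CPM at day 0, 16.1, 17.4 and 14.5 at day 2 and 9.62, 11.3 and 10.8 at day 4. The 3 days do not overlap and go down in order. The change was -0.52 ± 0.14 at day 2 (adjusted p = 0.0104, lost without WT day 2 replicate 3 at 0.0752) and -1.12 ± 0.14 at day 4 (1.40e-07). With VC the WT values were close to these, 27.2, 20.3 and 22.8 CPM at day 0, 16.6, 13.4 and 13.8 at day 2 (-0.68 ± 0.14, 0.000267) and 10.2, 10.9 and 9.47 at day 4 (-1.20 ± 0.14, 1.32e-08). In WT cells fibroblast markers summed to 155700 to 171400 CPM at day 0 with VC and 60950 to 72040 at day 4 with VC. Endothelial markers went from 4.73 to 7.08 CPM up to 98.1 to 116 over those days, and from 14.6 to 17.3 up to 95.3 to 95.7 without VC. Their part in the WT results with doxycycline was not tested.

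In D/KO cells Cdkn2c began lower, at 13.4, 12.9 and 10.1 CPM, and doxycycline alone did not move it past the threshold (0.19 ± 0.14 and 0.09 ± 0.14, adjusted p = 0.356 and 0.691). VC alone raised it to 21.4, 22.4 and 19.9 CPM (0.81 ± 0.14, 3.79e-05), above every D/KO library without VC. From there it fell to 11.9, 15.2 and 10.8 CPM at day 2 (-0.75 ± 0.14, 4.26e-05) and was at 15.7, 17.8 and 16.6 at day 4 (-0.34 ± 0.14, 0.0367). The day 4 fall was lost without D/KO day 0 with VC replicate 1 (0.0747) or 2 (0.105), or D/KO day 4 with VC replicate 1 (0.128) or 3 (0.0824). At day 4, VC against no VC was 0.38 ± 0.14 (0.0371), lost without D/KO day 4 replicate 1 (0.0586) or 3 (0.199), or D/KO day 4 with VC replicate 2 (0.125) or 3 (0.0719). Against day 0 without VC the changes were 0.06 (0.771) at day 2 with VC and 0.46 at day 4 with VC, the latter a called rise.

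Cdkn2d, the gene of p19 of the INK4 family, varied least of the 8 in the reprogramming table, though in the inhibitor table its group means differed by 5.75-fold. In WT cells it was at 10.9, 8.70 and 8.99 CPM at day 0 and 12.6, 15.2 and 18.1 at day 2 (0.68 ± 0.18, adjusted p = 0.0108). That rise was lost without WT day 0 replicate 2 (0.0552) or 3 (0.0584), or WT day 2 replicate 3 (0.0895). In D/KO cells it was lower at day 2 with VC, with 12.3, 10.9 and 8.39 CPM, than at day 0 with VC, with 14.3, 17.0 and 13.8 (-0.51 ± 0.18, 0.0209), and lower than at day 2 without VC, with 14.95, 15.4 and 15 (-0.52 ± 0.18, 0.0303). The first was lost without D/KO day 0 with VC replicate 2 (0.0976) or D/KO day 2 with VC replicate 3 (0.141), and from day 0 without VC (-0.36, 0.11). The second was lost without any 1 of the 3 D/KO day 2 replicates (0.0638, 0.0779 and 0.0634) or D/KO day 2 with VC replicate 2 (0.0586) or 3 (0.189).

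Cdkn3 differs from the other 7 in function, and its transcript is known to rise in dividing cells. In D/KO cells it was at 2.78, 2.03 and 1.12 CPM at day 0 with VC and 4.18, 4.68 and 3.79 at day 4 with VC, a rise of 1.08 ± 0.42 (adjusted p = 0.0283) without overlap. It was lost without D/KO day 0 with VC replicate 2 (0.0571) or 3 (0.148), or D/KO day 4 with VC replicate 2 (0.0721). WT cells held 3.10, 1.47 and 1.66 CPM at day 0 with VC and 0.697, 0.658 and 1.56 at day 4 with VC, a difference of -1.08 ± 0.46 that missed the threshold (0.054). DESeq2 called that WT difference (-1.1, 0.0347), as did a fit without a filter on low counts (-1.09, 0.0286). From day 0 without VC it was -0.12 (0.869), and the D/KO rise was 1.55, still called (0.00256). No other change of Cdkn3 within a line was called. Without D/KO day 0 replicate 3, the D/KO changes with doxycycline alone were called, at 1.82 at day 2 (0.00509) and 1.54 at day 4 (0.0133), where they were 1.01 and 0.74 with it.

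**Figure D3:**
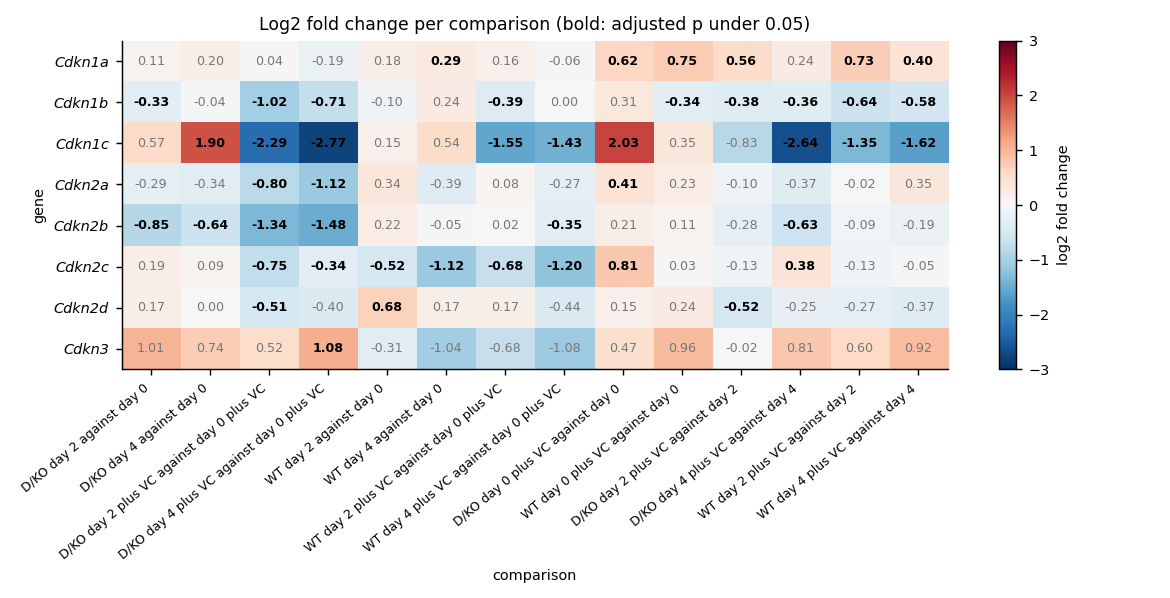
Log2 fold change of each gene in the 14 comparisons within a line of the reprogramming table, printed in each cell and coloured from blue (lower) to red (higher), with bold for an adjusted p under 0.05. The Cdkn2b row is called in all 4 D/KO comparisons with day 0, and the Cdkn1a row is positive and called in 5 of the 6 comparisons of VC with no VC.

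Counted over the 8 genes, the calls were read beside those of all genes. Against day 0 in D/KO cells, 2 of 8 were called at day 2, both lower, where 27.4% of all genes were called and 13.2% were lower. At day 4, 1 was higher and 1 lower (37% of all genes). With VC in both arms, 6 were lower at day 2 (47.4% of all genes called, 23.6% lower), and 5 were lower and 1 higher at day 4 (54.1% called, 26.2% lower). The median change of the 8 genes was -0.77 and -0.56 there, where that of all genes was -0.01 and 0.01. Both depend on the starting point: from day 0 without VC, 3 of the 8 were lower and 1 higher at day 2 with VC (median -0.31), and 3 lower and 3 higher at day 4 with VC (median -0.33). In WT cells 1 was higher and 1 lower at day 2 (10.6% of all genes) and likewise at day 4 (24.5%), and with VC 3 were lower at each day (27.5% and 44.7% called, 13.7% and 22% lower). The D/KO comparisons share their day 0 libraries, as do the WT ones.

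For VC against no VC at day 0, 4 of the 8 were higher in D/KO cells (26.1% of all genes called, 12.1% higher), and in WT cells Cdkn1a was higher and Cdkn1b lower (29.4%). At day 2 the D/KO cells had 1 higher and 2 lower (25.3%) and the WT cells likewise (26.6%). At day 4, 1 was higher and 3 were lower in D/KO (34.5%), and 1 higher and 2 lower in WT cells (22.4%).

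Whether the lines responded differently was tested as the D/KO change minus the WT change. Cdkn2b differed in all 4 settings: -1.07 ± 0.20 at day 2 (adjusted p = 0.000429), -0.59 ± 0.20 at day 4 (0.0386), -1.37 ± 0.20 at day 2 with VC (6.03e-06) and -1.14 ± 0.20 at day 4 with VC (3.53e-05). The day 4 call was lost without D/KO day 0 replicate 1 (0.224), D/KO day 4 replicate 2 (0.0509) or 3 (0.0889), WT day 0 replicate 1 (0.0972) or 3 (0.0821), or WT day 4 replicate 1 (0.0742) or 3 (0.0745). Cdkn2a differed with VC, by -0.88 ± 0.21 at day 2 (0.00317) and -0.85 ± 0.21 at day 4 (0.00212), and missed the threshold without it (-0.63 ± 0.21, 0.0635, and 0.04 ± 0.21, 0.933). The day 2 value without VC was called by DESeq2 (-0.64, 0.0323) and without a filter on low counts (-0.63, 0.00492).

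Cdkn2c went the other way, with the D/KO change above the WT change by 0.71 ± 0.20 at day 2 (adjusted p = 0.0241), 1.20 ± 0.20 at day 4 (4.44e-05) and 0.86 ± 0.20 at day 4 with VC (0.00125). The day 2 value was not called without D/KO day 0 replicate 3 (0.0824), D/KO day 2 replicate 1 (0.0964) or 3 (0.0505), WT day 0 replicate 2 (0.0514) or WT day 2 replicate 3 (0.0803). Cdkn1b differed with VC by -0.63 ± 0.18 at day 2 (0.0145) and -0.71 ± 0.18 at day 4 (0.0025), and the first was lost without WT day 2 with VC replicate 2 (0.064). When day 0 without VC was the starting point in both lines, neither was called, at 0.02 (0.959) for day 2 and -0.06 (0.88) for day 4. For Cdkn2c the same switch turned -0.07 into 0.71 (0.00976) at day 2 with VC and moved 0.86 to 1.63 (1.13e-07) at day 4 with VC. Cdkn3 differed by 2.17 ± 0.62 at day 4 with VC (0.00778), and by 1.67, not called (0.061), from day 0 without VC. Without D/KO day 0 replicate 3, its differences of 1.33 at day 2 and 1.78 at day 4 became 2.13 (0.0469) and 2.59 (0.00851) and were called. With all libraries kept, the day 4 difference was called by DESeq2 (1.79, 0.0427) and without a filter on low counts (1.79, 0.032).

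The changes of Cdkn1a were alike in size in the lines, with differences from -0.13 to -0.08 and 95% intervals that all lay between -0.41 and 0.21. Cdkn1c and Cdkn2d gave no called difference, though the intervals for Cdkn1c ran as wide as -2.72 to 0.05 at day 4 with VC. That Cdkn1c difference was called without D/KO day 4 with VC replicate 2 (-2.12, adjusted p = 0.0384). From day 0 without VC its sign turned, to 0.94 (0.393) at day 2 with VC and 0.35 (0.806) at day 4 with VC, where the values from day 0 with VC were -0.74 and -1.34. For Cdkn2d the day 2 difference with VC, -0.68 (adjusted p = 0.0761), was called from day 0 without VC (-0.77, 0.0311). In all, 2 of the 8 genes differed at day 2, where 6.54% of all genes did, and 2 at day 4 (14.3%). With VC it was 3 at day 2 (13.9%) and 5 at day 4 (29.4%). The 18 proliferation genes differed between the lines too: 17 had a higher D/KO change at day 2 with VC and 18 at day 4 with VC, with medians of 1.41 and 2.03. The called differences of the 8 genes went in both directions. These proliferation values start from day 0 with VC, where VC alone had raised most of the 18 in WT cells (given below). The part of the 18 genes in the result was not tested.

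**Figure D4:**
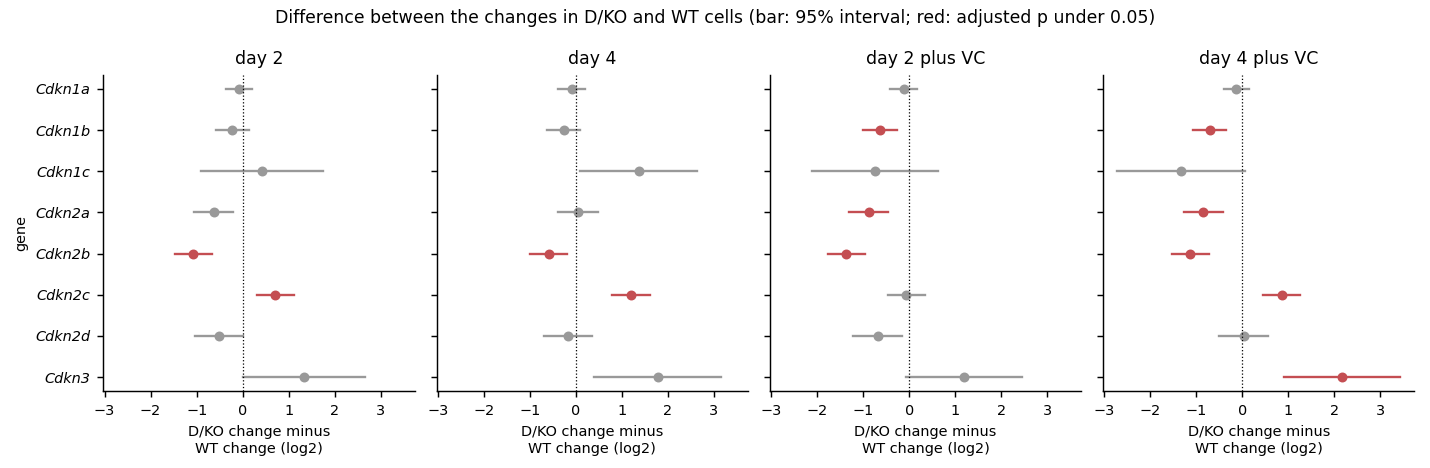
Change in D/KO cells minus change in WT cells for each gene, on the log2 scale, at day 2, day 4 and the same days with VC, with 95% intervals as bars and red for an adjusted p under 0.05. Cdkn2b lies left of 0 in all 4 panels, and Cdkn2c lies right of 0 in all but day 2 with VC.

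Before any treatment the 2 lines differed in 5 of the 8 genes, where 43.2% of all genes differed. In D/KO relative to WT cells at day 0, Cdkn1a was higher by 0.40 ± 0.10 (adjusted p = 0.00127), and Cdkn2d by 0.50 ± 0.18 (0.0272). Cdkn2c was lower, at -0.92 ± 0.14 (2.23e-06), as were Cdkn1b at -0.58 ± 0.13 (0.000299) and Cdkn1c at -1.47 ± 0.48 (0.0123). The Cdkn1c call was lost without D/KO day 0 replicate 3 (0.0938), and that of Cdkn2d without D/KO day 0 replicate 1 (0.0779) or 2 (0.0617), or WT day 0 replicate 2 (0.0901) or 3 (0.085). Cdkn2a (-0.08 ± 0.15) and Cdkn2b (0.13 ± 0.14) were not called. Endothelial markers stood at 586 to 709.7 CPM in D/KO and 14.6 to 17.3 in WT day 0 libraries, and macrophage markers at 13 to 13.4 in D/KO and 75.7 to 147 CPM in WT. Their part in the result was not tested.

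The inhibitor table compares other cells, D/KO control cells of 4 weeks with ERCC1_(+/+) tail tip cells of 14 weeks, both female. Here 6 of the 8 genes differed, 4 higher and 2 lower, where 40.2% of all genes did. Cdkn1a was at 517, 507 and 509.8 CPM in D/KO control and 360, 335 and 367 in WT tail tip (0.54 ± 0.07, adjusted p = 9.97e-06). Cdkn1b was at 42.1, 47.0 and 39.3 CPM against 96.7, 106 and 104 (-1.24 ± 0.09, 1.41e-08). These 2 genes had the same direction as at day 0 above, in separate libraries of another age.

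With all libraries kept, the largest change of any of the 8 genes in any comparison was that of Cdkn1c, at 2.39, 1.66 and 2.01 CPM in D/KO control and 139.8, 98.2 and 143 in WT tail tip, a change of -5.95 ± 0.28 (adjusted p = 5.81e-11). Without WT skin replicate 1, the Cdkn1c change of skin against tail tip, given below, was larger, at -6.37. Outside WT tail tip, no library in either table held more than 15.4 CPM of Cdkn1c. Cdkn2a (0.85 ± 0.26, 0.0152) and Cdkn2b (0.49 ± 0.15, 0.0171) were higher in D/KO control cells, both lost without WT tail tip replicate 2 (0.0637 and 0.0743) or D/KO control replicate 1 (0.0544 and 0.0616). Cdkn2c was higher by 0.47 ± 0.16 (0.0256), the opposite of the sign at day 0 in the reprogramming table. It was lost without WT tail tip replicate 1 (0.0577) or 2 (0.0966), or D/KO control replicate 1 (0.0745) or 3 (0.0737). Adipocyte markers summed to 65 to 67.6 CPM in D/KO control and 760.1 to 787 in WT tail tip, and endothelial markers to 290.3 to 332 and 73.4 to 91.2, and their part in these results was not tested. Of the 4 adipocyte markers, Adipoq and Plin1 were under 1 CPM in every library of the table, here and in the results below.

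**Figure D5:**
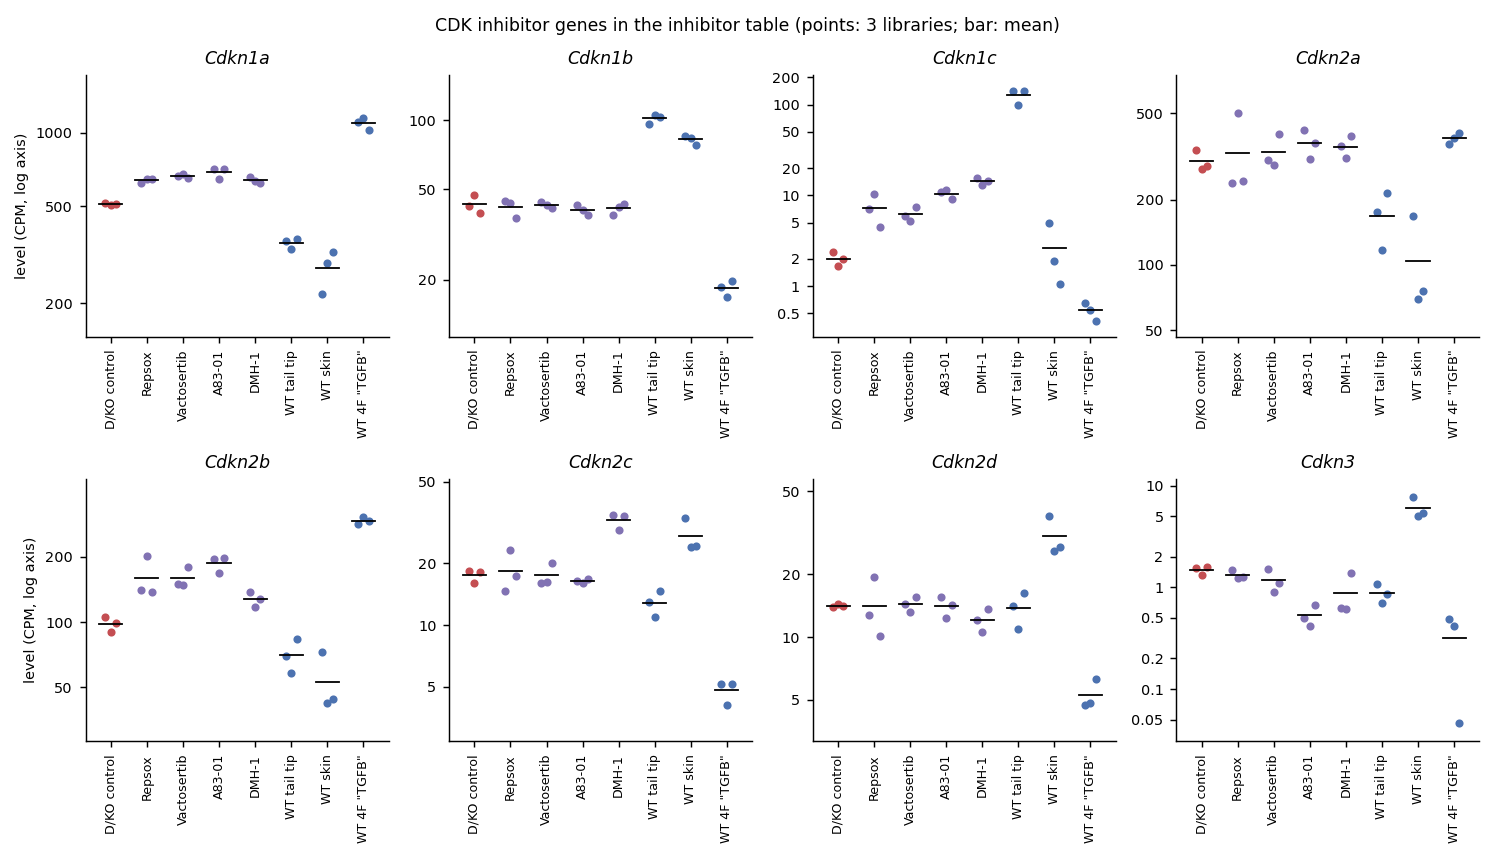
Level of each gene in the 8 groups of the inhibitor table, in CPM on log axes, 1 point per library (3 per group) with the group mean as a bar. Cdkn1c is far higher in WT tail tip than in any other group and higher with each inhibitor than in D/KO control cells, and Cdkn2c is at 29.2 to 34.5 CPM with DMH-1.

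All 4 inhibitors raised Cdkn1a and Cdkn1c in D/KO cells, and Cdkn2b was above control in every treated library, a rise called for Repsox, Vactosertib and A83-01. The 4 comparisons share the same 3 control libraries. Cdkn1a went from 507 to 517 CPM in control to 623, 649 and 646 with Repsox, 663, 677 and 650.3 with Vactosertib, 659, 636 and 625 with DMH-1 and 711, 648 and 713 with A83-01. All 12 treated libraries lay above all controls. The rises were 0.32 ± 0.07 (adjusted p = 0.00286), 0.38 ± 0.07 (0.000769), 0.33 ± 0.07 (0.00663) and 0.43 ± 0.07 (0.000142) in that order. The DMH-1 call was lost when all 24 libraries were fitted together (0.0745) and without a filter on low counts (0.067), and the Repsox call in a fit of those 2 groups alone (0.0869). Without Repsox replicate 2 the Repsox rise was 0.31 (0.00571).

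Cdkn1c rose the most. From 1.66 to 2.39 CPM in control it reached 7.01, 10.3 and 4.45 with Repsox (1.83 ± 0.27, adjusted p = 7.59e-05), 5.99, 5.22 and 7.36 with Vactosertib (1.61 ± 0.27, 0.000363), 10.9, 11.4 and 9.13 with A83-01 (2.36 ± 0.27, 2.90e-06) and 15.4, 13.1 and 14.4 with DMH-1 (2.82 ± 0.27, 2.91e-06). No treated library overlapped the controls. Even the highest, with DMH-1, lay below the lowest WT tail tip library (98.2 CPM). Without Repsox replicate 2 the Repsox change was 1.49, still called.

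Cdkn2b was at 106, 90.3 and 98.6 CPM in control. It was at 140.3, 202 and 137 with Repsox (0.70 ± 0.15, adjusted p = 0.00261), 150, 148 and 179 with Vactosertib (0.71 ± 0.15, 0.00293) and 196, 168 and 198 with A83-01 (0.93 ± 0.15, 0.000157), all above control. Without Repsox replicate 2 the first was 0.49, still called. DMH-1 gave 138, 118 and 128 CPM, also above control, and a change of 0.39 ± 0.15 that was not called (0.131), though in a fit of those 2 groups alone it was (0.38, 0.0204). Its neighbour Cdkn2a was not called with any inhibitor, with changes of 0.13 to 0.28 and 95% intervals from -0.42 to 0.67 with Repsox up to -0.27 to 0.82 with A83-01. Repsox replicate 2 had the highest Cdkn2a of the table, 504 CPM. Its partners, at 239.7 and 243 CPM, were below all 3 controls (277 to 340.3), and without replicate 2 the Repsox change of 0.13 became -0.32, also not called (0.269).

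Cdkn2c, the gene of p18, was called with DMH-1 and Cdkn3 with A83-01. Cdkn2c was at 34.5, 29.2 and 34.2 CPM with DMH-1, against 18.4, 16.1 and 18.1 in control (0.90 ± 0.16, adjusted p = 0.0012), and was not called with the other inhibitors (-0.10 to 0.06). Cdkn3 was at 0.500, 0.420 and 0.665 CPM with A83-01, against 1.53, 1.32 and 1.59 in control (-1.48 ± 0.34, 0.00318). With DMH-1 it was at 0.627, 0.607 and 1.40 CPM, a change of -0.79 ± 0.33 that was not called (0.156). Cdkn1b and Cdkn2d were not called with any inhibitor, at -0.08 to 0.00 and -0.23 to 0.03. Of the 8 genes, 3 were called with Repsox, where 25.2% of all genes were, 3 with Vactosertib (22.1%), 4 with A83-01 (32.6%) and 3 with DMH-1 (9.75%). All of these were higher but Cdkn3, and of all genes 13.4%, 11.8%, 16.4% and 5.96% were higher, in that order. Proliferation genes fell alongside, 8 of 18 with Repsox, 11 with Vactosertib, 15 with A83-01 and 7 with DMH-1, and none rose. Fibroblast markers summed to 79230 to 84490 CPM in control, 40700 to 48240 with Repsox, 49120 to 52600 with Vactosertib, 42460 to 45180 with A83-01 and 68180 to 85790 with DMH-1. Adipocyte markers were at 65 to 67.6 CPM in control and 100.2 to 193 with the inhibitors, and Schwann cell markers at 7.38 to 10.1 in control and 12.3 to 42.2 with them, highest with A83-01. The part of these lists in the results with inhibitors was not tested.

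The compounds were compared with each other only at matched doses, in 2 pairs, both at 3 days. Repsox and Vactosertib, at 0.1 µM, differed in none of the 8 genes, and 0 of all 15164 genes were called (0%) by edgeR, with 452 at an unadjusted p under 0.05 and 8 called by DESeq2. The 95% interval of the difference was -0.33 to 0.32 for Cdkn2b and -0.29 to 0.73 for Cdkn1c. Without Repsox replicate 2 the differences were -0.21 for Cdkn2b, -0.12 for Cdkn1c and -0.47 for Cdkn2a, and none of the 8 was called. A83-01 and DMH-1, at 1 µM, differed in 25.4% of all genes and in 2 of the 8. Cdkn2c was lower with A83-01 than with DMH-1, at 16.4, 16 and 16.9 CPM against the 29.2 to 34.5 above (-0.99 ± 0.16, adjusted p = 0.000134), and Cdkn2b was higher (0.54 ± 0.15, 0.0144). The Cdkn2b difference was lost without DMH-1 replicate 2 (0.0659) or A83-01 replicate 1 (0.0503) or 3 (0.0578). For Cdkn1c the difference of -0.46 ± 0.23 was not called (0.163, interval -0.94 to 0.02), nor was that of Cdkn1a (0.11 ± 0.07, 0.318). The Cdkn1c libraries of these groups did not overlap, and in a fit of the groups alone the difference was called (-0.45, 0.0276).

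WT cells from skin were set against WT cells from tail tip, and 6 of the 8 genes differed, where 34.2% of all 15652 genes tested did. Cdkn1c was at 4.96, 1.91 and 1.07 CPM in skin, against 98.2 to 143 in tail tip (-5.55 ± 0.39, adjusted p = 5.66e-10). Cdkn3 was at 7.78, 5.01 and 5.40 CPM in skin and 1.08, 0.698 and 0.865 in tail tip (2.77 ± 0.38, 6.65e-06). Cdkn2c, at 33.3, 24.1 and 24.2 against 12.9, 10.9 and 14.6 CPM (1.09 ± 0.17, 2.98e-05), and Cdkn2d, at 38.3, 25.8 and 27.1 against 14.0, 10.9 and 16.3 CPM (1.15 ± 0.21, 0.000159), were also higher in skin, with no overlap. Proliferation genes were higher in skin too, 17 of 18 with a median of 1.93. Muscle markers were at 108 to 143 CPM in skin and 16.1 to 21.3 in tail tip, endothelial markers at 167 to 241 and 73.4 to 91.2, and adipocyte markers at 436 to 595 and 760.1 to 787. The part of these lists in the skin results was not tested.

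Cdkn1a (-0.35 ± 0.11, adjusted p = 0.0162) and Cdkn1b (-0.31 ± 0.09, 0.0145) were lower in skin. Cdkn1a was no longer called without WT tail tip replicate 3 (0.0552) or WT skin replicate 1 (-0.20, 0.056), nor Cdkn1b without WT tail tip replicate 2 (0.05) or WT skin replicate 3 (0.0601). Both calls were also lost in a fit of the 2 groups alone (0.306 for Cdkn1a, 0.197 for Cdkn1b) and without a filter on low counts (0.0767 and 0.119). Skin replicate 1 held 168 CPM of Cdkn2a, beside 69.6 and 75.7 in the other two and 175, 117 and 214 in tail tip (-0.69 ± 0.30, 0.0854). Without it the Cdkn2a change was -1.21 and that of Cdkn2b -0.71, and both were then called. The other changes without it were -6.37 for Cdkn1c, 2.55 for Cdkn3, 0.92 for Cdkn2c and 0.94 for Cdkn2d, all still called, as was Cdkn1b at -0.33.

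The WT libraries labelled TGFB are described without a test, since no untreated cells of that line are in their table. They held the highest Cdkn1a of the 24 libraries, 1102, 1155 and 1028 CPM, and the highest Cdkn2b, 285, 306 and 292 CPM, with no overlap with any other group. Their Cdkn1b (16.9 to 19.8 CPM), Cdkn2c (4.06 to 5.18) and Cdkn2d (4.74 to 6.28) were the lowest of the table, also without overlap. Cdkn1c was at 0.413 to 0.658 CPM and Cdkn3 at 0.0458 to 0.483 CPM, the latter from as little as 1 count. Muscle markers summed to 1711 to 2063 CPM in these 3 libraries and to at most 143 in the others. Keratinocyte markers stood at 224 to 253 CPM and at most at 19.7 elsewhere in the table, endothelial markers at 1.20 to 1.88 and adipocyte markers at 0.825 to 1.54 CPM. In every library of the table, 6 of the 10 keratinocyte markers (Cdh1, Dsg3, Krt1, Krt14, Krt15 and Krt5) and the muscle marker Myod1 were under 1 CPM. The part of these marker lists in these levels was not tested.

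The kinases and their partners were read from lists of genes. In D/KO cells at day 4 with VC, against day 0 with VC, 9 of 12 kinases and cyclins rose and 2 fell (median 0.91), where 54.1% of all genes were called, and all 18 proliferation genes rose (median 1.18). Ccnd1, the D-type cyclin that CDK4 and CDK6 bind, rose by 2.02 ± 0.12, Ccna2, the S phase cyclin, by 1.66, and Mki67, a marker of cycling cells, by 2.31. In WT cells over the same days 3 kinases and cyclins rose and 7 fell (44.7% of all genes were called), among them Ccnb1, the mitotic cyclin, at -1.69, though Ccnd1 rose by 1.60. From day 0 with VC, no proliferation gene rose in WT cells and 10 of 18 fell (median -0.65), and the lists were not measured from day 0 without VC. At day 0, VC alone raised 16 of the 18 in WT (median 1.60, 29.4% of all genes called), and none of them was called in D/KO cells (median 0.16, 26.1%). Among 10 genes of the Rb family, which CDK4 and CDK6 act on, and of the E2F family, 4 rose and 2 fell in D/KO cells at day 4 with VC, with E2f2 at 2.65 and Rb1 at 1.00. Of 11 other CDK regulators 4 rose and 2 fell, with the phosphatase Cdc25b at 2.40. Both counts of 6 stand near the 54.1% of all genes.

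Regulators and other p53 targets did not all go with Cdkn1a. Of 16 further p53 targets, 7 were higher and 2 lower with VC at day 0 in D/KO cells (median 0.25), with Pmaip1, a gene of cell death, at 1.38 and Btg2, an antiproliferative gene, at 1.01, and 4 were higher and 2 lower in WT cells (median 0.02). All genes were called at 26.1% and 29.4% there. At D/KO day 4 with VC, 7 fell and 1 rose (median -0.29), among them Zmat3 at -0.75 and Sesn2 at -0.72, while Cdkn1a was not called, and 54.1% of all genes were. In untreated cells 0 of the 16 were higher and 7 lower in D/KO at day 0 (median -0.29, 43.2% of all genes called), but 9 were higher and 1 lower in D/KO control against WT tail tip (median 0.57, 40.2%). Cdkn1a was higher in both. With the inhibitors 5 of 16 were higher with Repsox (25.2% of all genes called), 7 with Vactosertib (22.1%), 8 with A83-01 (32.6%) and 2 with DMH-1 (9.75%), and at most 1 was lower. Of 16 regulators of the inhibitor genes, 3 rose and 3 fell with Repsox, 2 and 3 with Vactosertib, 4 and 5 with A83-01 and 1 and 2 with DMH-1, beside those same shares of all genes. At D/KO day 4 with VC 6 rose and 5 fell, where 54.1% of all genes were called. Among them Cbx7, a Polycomb protein that represses Cdkn2a, rose by 1.54 with Repsox, 1.59 with Vactosertib, 1.90 with A83-01 and 0.98 with DMH-1. Myc, which represses Cdkn1a and Cdkn2b, fell by 1.13, 1.13, 1.53 and 0.64 on the log2 scale. Ezh2, the Polycomb methyltransferase, rose by 1.3 and Id1 by 1.63 at D/KO day 4 with VC, where Myc itself is partly the transgene.

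The genes whose levels went most closely with each inhibitor gene were found over the 36 reprogramming libraries, by Pearson's r of log2 CPM among all genes tested. For Cdkn3 they were Lrrc42 (r = 0.869), Nusap1 (0.868) and Racgap1 (0.858), of which the last pair act in mitosis. Cdkn2b went with Ccn5 (0.926), Azin2 (0.921) and Ccdc102a (0.921), and Cdkn2a with Rab34 (0.897), Srp9 (0.892) and Lgmn (0.879). The closest to Cdkn1a were Lta4h (0.901), Slc48a1 (0.889) and Esd (0.877), and to Cdkn1b Slc4a3 (0.919), Ccdc82 (0.908) and Zfyve1 (0.895). Cdkn1c, Cdkn2c and Cdkn2d had looser partners, led by Rcan2 (0.796), Commd8 (0.83) and Trappc3 (0.821). By Spearman's rho, all 3 names were the same for Cdkn1a and Cdkn2d, 2 for Cdkn2a and Cdkn3 and 1 for the others. Taken over the 12 group means, 2 of the 3 names were the same for Cdkn2b and Cdkn2c, 1 for Cdkn1a, Cdkn1b, Cdkn1c and Cdkn3, and 0 for Cdkn2a and Cdkn2d, so the names depend on the measure. Among the inhibitor genes themselves, Cdkn1b went with Cdkn1c (0.68) and Cdkn2b (0.66) and against Cdkn3 (-0.67) and Cdkn1a (-0.61). The libraries share conditions and depth, and these values are a description.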

How the data were processed

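RNA was sequenced from 60 libraries of mouse fibroblasts, polyA RNA in paired ends. The authors deposited raw gene counts with the coordinates and exon length of each gene. Per the submitters' processing notes, FastQC, Trim Galore, HISAT2 and featureCounts from Subread were run on GRCm39. Their versions, the annotation release and the strand setting are not given in the sources used here. Each table was tested on its own with edgeR 4.0.16 in R 4.3.3, after TMM scaling and edgeR's filter on low counts: 1 fit held the 36 reprogramming libraries, 1 the 18 libraries of D/KO cells and WT tail tip of the inhibitor table, and 1, used for skin against tail tip, all 24 of that table. Quasi-likelihood p-values were adjusted over all genes, and DESeq2 1.42.0 was an alternative. The edgeR fit was also run on simulated counts, and the outcome is not given here. Replicates were compared first, and in every pair the spread was at least 3.18 times the counting noise, so none was counted as a repeat.

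The 8 genes were picked by symbol, as a family. That choice, and the lists of kinases, regulators, p53 targets, proliferation genes and cell type markers, were made with earlier results of these data known. All 8 genes were tested in every comparison, though not every value that missed the threshold is printed. Of the genes closest to each by Pearson's r, 3 are named, or only the first for Cdkn1c, Cdkn2c and Cdkn2d. Of each list at most 3 called members with the largest changes are named for a comparison. The libraries carry serial numbers, so replicate numbers follow accession order. Alternatives and left-out libraries are given at the end. Promoters are from RefSeq.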

Additional observations from a re-analysis of the deposited data

Results flagged for a closer look

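In 12 tests the change in D/KO cells differed from that in WT cells, so that the D/KO change minus the WT change was called. Cdkn2b gave -1.07 at day 2, -0.59 at day 4, -1.37 at day 2 with VC and -1.14 at day 4 with VC on the log2 scale. Cdkn2a gave -0.88 and -0.85 at days 2 and 4 with VC, and Cdkn1b -0.63 and -0.71. Cdkn2c gave 0.71 at day 2, 1.20 at day 4 and 0.86 at day 4 with VC. Cdkn3 gave 2.17 at day 4 with VC. With day 0 without VC as the starting point in both lines, the Cdkn1b differences were 0.02 and -0.06 and that of Cdkn3 was 1.67, and none of these was called. The lines differ in sex, age and origin as well as in Ercc1, and these cannot be told apart.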

How the results depend on the processing

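Of 216 tests of the 8 genes, 89 were called, and 59 of those stayed called with any 1 library left out. DESeq2 in place of edgeR called 96, among them all 89, and its size factors called 91, also with all 89. Without a filter on low counts 80 of the 89 were called and 9 others were gained. A minimum of 10 counts in every library left Cdkn1c and Cdkn3 untested for reprogramming and for skin against tail tip, and with them 14 of the calls, and the other 75 were kept. Fits of only the groups compared kept 71 of 77 calls, and a fit of all 24 inhibitor libraries kept 14 of 15. Asking also for a log2 change of 1 or more in size left 8 of 16 calls for D/KO reprogramming, 4 of 10 for WT reprogramming, 1 of 6 for VC at day 0, 3 of 13 for VC at days 2 and 4, 5 of 12 between the lines, 3 of 11 between untreated cells, 5 of 13 for the inhibitors and 0 of 2 between compounds, since most changes were smaller. With day 0 without VC as the starting point 17 of 26 tests stayed called, 9 were lost and 7 others gained. The 17 include Cdkn2c in D/KO cells at day 4 with VC, which was called in the opposite direction. Among tests called from either starting point, the sign turned for Cdkn2c in D/KO cells (0.06 at day 2 with VC and 0.46 at day 4 with VC), for Cdkn1a at day 4 with VC (0.44 for D/KO, 0.69 for WT), and between the lines at day 2 with VC for Cdkn1b (0.02) and Cdkn2c (0.71), where the alternative differs from the reported value by the VC change at day 0. With 1 library left out at a time the counts of calls ranged from 13 to 18 for D/KO reprogramming, 7 to 11 for WT reprogramming, 5 to 7 for VC at day 0, 11 to 14 for VC at days 2 and 4, 11 to 13 between the lines, 8 to 11 between untreated cells, 13 to 14 for the inhibitors, 1 to 2 between compounds (1 without DMH-1 replicate 2 or A83-01 replicate 1 or 3) and 5 to 7 for skin against tail tip. No paired analysis was possible because the labels number the libraries serially through each table, so replicate numbers in accession order pair nothing. Depth limits Cdkn3, at 1 to 174 counts per library, and Cdkn1c, at 6 to 101 in the reprogramming table.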
